A study of Homo sapiens with 9 samples.

Results

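Introns shorter than 200 nt are the shortest class of human introns, and the peaks of antibody-barcode eCLIP (ABC) that lie in them were collected from all 54 libraries. A peak was taken where its centre lay, on the same strand, in an intron under 200 nt of the Ensembl canonical transcript of a protein-coding gene (GENCODE release 44, GRCh38). The rule used the position of a peak and no value of it. It found 34386 of 2478204 merged peaks, or 1.39%, and 3.09% of the 1114313 peaks in introns of any length. Short introns were 12.2% of the 186470 introns of these transcripts and 0.247% of their nucleotides. Of the 22695 short introns, 10072 (44.4%) held a peak in at least 1 library, in 4194 of the 7695 genes that have such an intron.

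ABC ligates a DNA barcode carried by each antibody to the RNA fragments held by its RNA-binding protein (RBP) after UV crosslinking, so that the RBPs of a pool are told apart by their reads. The study made 2 singleplex libraries of RBFOX2 in HEK293T cells, a human embryonic kidney line, and 2 of SLBP in K562 cells, a leukaemia line. It also made 10plex pools, 3 in K562 and 2 in HEK293T, each with antibodies against DDX3, EIF3G, FAM120A, IGF2BP2, LIN28B, PRPF8, PUM2, RBFOX2, SF3B4 and ZC3H11A. The paper names the kidney line HEK293XT, where the sample titles read HEK293T, the name used here. The cells were unmodified, without treatment or tag, and each RBP was read with 1 antibody. The labels of the HEK293T pools name K562 in 1 field and those of K562 replicate 3 name K563, so the pools were checked by erythroid genes: GATA1, HBG1, HBG2 and HBZ together held 78, 94 and 86 peaks in the K562 pools and 0 peaks in both HEK293T pools. Libraries held 938 to 79886 peaks in the K562 pools and 1871 to 206869 in the HEK293T pools, with 13351 to 2189313 and 18310 to 2295017 reads summed over their peaks. No label ties a pool to a culture of its own, so the spread between pools may be technical. The p-values for an RBP rank it among the RBPs of the same pools and do not measure that spread. Only the tests between cell lines and between formats permute pools or replicate libraries.

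Splicing begins when the 5′ splice site is bound by U1 snRNP and the branch point near the 3′ splice site by U2 snRNP, after which U5 and its partners form the active spliceosome. In a short intron both ends lie within the reach of a few crosslinked fragments, and such introns are thought to be recognised as a unit across the intron. SF3B4 is a subunit of the SF3B complex of U2 snRNP that contacts the RNA upstream of the branch point, and PRPF8 is the large U5 protein at the centre of the spliceosome. RBFOX2 regulates alternative splicing through GCATG. The other RBPs of the pools are known mainly from mature mRNA or from precursors of small RNAs, and SLBP from the stem-loop of histone mRNAs.

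The 8 introns below carry the results on single sites, and each is shown whole, on its own strand, from the 5′ to the 3′ splice site. The first 5 are given in GRCh38. Capitals mark the bases that lay under the enriched peak of the named RBP in each of the libraries counted beside the intron. FASN and PCED1A are shown for PRPF8, and PIEZO1, SEMA4C and ARF1 for LIN28B.
FASN intron 6, chr17:82092813-82092896, minus strand, PRPF8 in 3 K562 libraries: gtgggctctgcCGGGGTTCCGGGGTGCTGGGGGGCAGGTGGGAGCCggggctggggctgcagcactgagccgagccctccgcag
PCED1A intron 3, chr20:2839083-2839191, minus strand, PRPF8 in 2 HEK293T libraries: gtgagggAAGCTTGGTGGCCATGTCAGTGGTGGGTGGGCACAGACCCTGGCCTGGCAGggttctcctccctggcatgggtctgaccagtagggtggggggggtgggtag
PIEZO1 intron 37, chr16:88721727-88721807, minus strand, LIN28B in 3 K562 libraries: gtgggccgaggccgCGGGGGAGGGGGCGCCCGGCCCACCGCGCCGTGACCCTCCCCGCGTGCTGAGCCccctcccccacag
SEMA4C intron 11, chr2:96863795-96863925, minus strand, LIN28B in 3 K562 libraries: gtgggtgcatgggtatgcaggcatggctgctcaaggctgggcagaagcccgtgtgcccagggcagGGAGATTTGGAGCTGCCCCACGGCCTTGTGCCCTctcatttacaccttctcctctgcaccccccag
ARF1 intron 2, chr1:228097263-228097341, plus strand, LIN28B in 4 libraries: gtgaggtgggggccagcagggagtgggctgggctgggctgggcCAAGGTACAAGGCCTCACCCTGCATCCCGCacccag

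In the remaining 3, capitals mark short motifs found by a search of the sense strand: GCATG in AMH, and TGATG followed by CTGA in RPL13A and TNPO2, the letters that the C and D boxes of a C/D snoRNA usually contain.
AMH intron 2, chr19:2250480-2250651, plus strand: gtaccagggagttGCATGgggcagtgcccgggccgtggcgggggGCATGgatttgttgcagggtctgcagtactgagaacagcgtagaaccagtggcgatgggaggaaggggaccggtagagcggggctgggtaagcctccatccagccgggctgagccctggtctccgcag
RPL13A intron 5, chr19:49490865-49491039, plus strand: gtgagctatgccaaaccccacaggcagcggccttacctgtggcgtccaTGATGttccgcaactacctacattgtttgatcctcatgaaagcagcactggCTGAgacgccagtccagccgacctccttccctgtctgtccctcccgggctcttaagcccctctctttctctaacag
TNPO2 intron 19, chr19:12703527-12703713, minus strand: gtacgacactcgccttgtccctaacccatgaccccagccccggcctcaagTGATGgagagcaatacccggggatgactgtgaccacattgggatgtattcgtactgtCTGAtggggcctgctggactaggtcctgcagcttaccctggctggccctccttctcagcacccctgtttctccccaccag

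Like these, nearly all short introns began with GT (99.1%) and ended with AG (99.9%). They had a median length of 110 nt and a mean GC content of 55.3%, and 22165 of them lay in the coding part of the transcript. The peaks had a median width of 44 nt, with an interquartile range of 31 to 58 nt, so that 48.9% also reached the upstream exon, 9.37% reached the downstream exon and 42.5% lay inside the intron. A further check showed that 1128 peaks also overlapped an exon of another canonical transcript. Only 56 (0.163%, against 0.332% of all peaks) lay near a site that resembles the sequencing adapter.

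Most short-intron peaks of the 10plex pools belonged to the spliceosomal proteins, as PRPF8 and SF3B4 together held 82.5% of them. In K562, the share of a library's peaks in short introns was 6.84%, 5.66% and 7.75% for PRPF8, and 6.43%, 5.37% and 7.62% for SF3B4. Each of these libraries was above every library of the other 8 RBPs, which lay between 0.143% and 1.60%. The means were 6.75% ± 1.05 (SD, n = 3) for PRPF8 and 6.47% ± 1.12 (SD, n = 3) for SF3B4. PRPF8 was 5.33 percentage points above the mean of the other 9 RBPs, with a two-sided exact permutation p = 0.001 over the RBP labels within pools, the smallest the design allows, and an adjusted p = 0.01. For SF3B4 the difference was 5.02 points, with an exact permutation p = 0.008 and an adjusted p = 0.04. The call of SF3B4 was lost among peaks enriched over the complement control described below (adjusted permutation p = 0.08), among the 900 peaks with the most reads (0.764) and for the share of reads (0.285). Without any 1 of the 3 pools neither RBP passed, since the smallest adjusted permutation p is then 0.1.

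The other 8 RBPs had lower shares. Their K562 means ran from 0.280% ± 0.123 (SD, n = 3) for IGF2BP2 through 0.356% for FAM120A, 0.547% for LIN28B, 0.686% for DDX3, 0.945% for RBFOX2, 1.04% for ZC3H11A and 1.08% for EIF3G to 1.37% ± 0.247 (SD, n = 3) for PUM2. No mean of these 8 was separated from the other 9 RBPs, with exact permutation p from 0.105 to 0.881, and they were not tested against each other. PUM2, a repressor of mRNA translation, had the fewest peaks, and its 15 of 938 peaks in K562 replicate 1 allow a share from 0.898% to 2.62% (exact binomial interval at 95%, counting error only).

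In HEK293T, SF3B4 had shares of 6.57% and 4.29%, and PRPF8 had 4.39% and 3.42%. All of them lay above the other 8 RBPs, whose means ran from 0.244% for FAM120A to 0.649% for PUM2. The exact permutation p was 0.01 for SF3B4 and 0.04 for PRPF8, with adjusted p = 0.1 and 0.2. With 2 pools the smallest p is 0.01, so that a single RBP cannot pass the threshold after the correction over 10 RBPs.

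**Figure D1:**
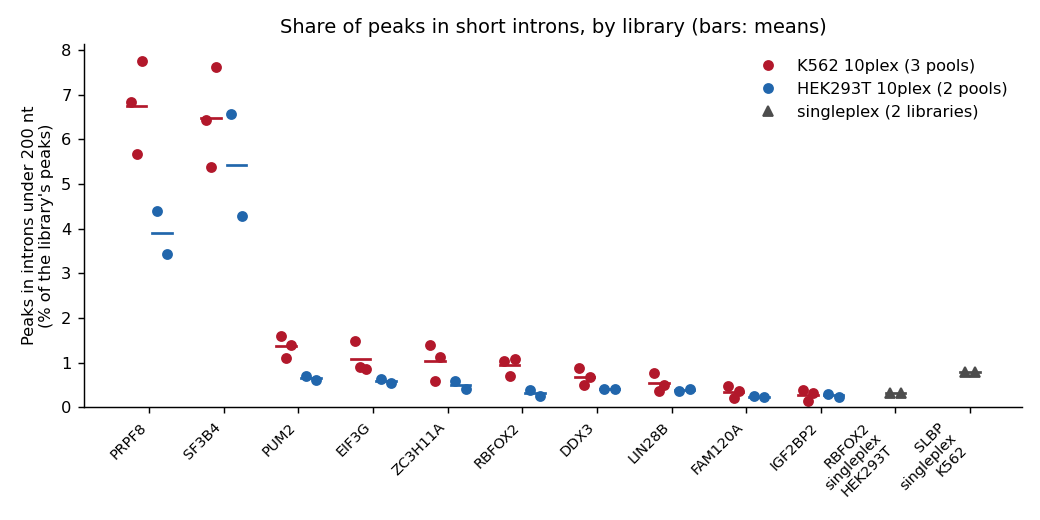
Share of each library's peaks that lay in introns under 200 nt (y axis, percent), by RBP (x axis), with 1 point per library and bars for the means of K562 10plex (3 pools) and HEK293T 10plex (2 pools); triangles are singleplex libraries. PRPF8 and SF3B4 stand above the other RBPs in both cell lines, at means of 6.75% and 6.47% in K562.

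In K562 the read counts set PRPF8 farther above SF3B4 than the peak counts did. Of the reads summed over all peaks of a K562 library, where a read that reaches into neighbouring peaks can count in each, a mean of 7.10% lay in short-intron peaks for PRPF8, 4.08% for SF3B4 and 0.279% for FAM120A. In HEK293T the shares were 5.35% and 4.32% for PRPF8 and 5.52% and 3.63% for SF3B4 in replicates 1 and 2, so that SF3B4 was the higher in replicate 1. Per nucleotide, peaks of PRPF8 were 53.0 ± 6.7 (SD, n = 3) times as dense in short as in longer introns in K562, and those of SF3B4 49.1 ± 8.1 times. Counted by intron there was no such excess, as 12.2% of all introns were short. They held a mean of 11.6% of the intron peaks of PRPF8 and 10.8% of those of SF3B4 in K562. In HEK293T these shares were 9.89% and 10.7%. For RBFOX2, which binds deep in long introns too, the density ratio was 8.65 ± 2.49 in K562 and 2.05 ± 0.545 in HEK293T. The means of the remaining 7 RBPs were above 1 as well, from 8.10 for FAM120A to 21.5 for EIF3G in K562 and from 3.81 for FAM120A to 14.4 for EIF3G in HEK293T. RNA levels were not measured here, so fewer transcripts and fewer bound sites cannot be told apart in these densities.

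A PRPF8 library covered 16.6% of all short introns with a peak in both cell lines, on average. SF3B4 covered 5.67% in K562 and 7.13% in HEK293T, RBFOX2 1.52% and 2.34%, and PUM2 0.0632% and 0.0639%. Peaks of PRPF8 recurred in the same 1473 short introns in every K562 pool, or 22.4% of the 6576 in which any pool had one, and in 2124 of 5403 introns (39.3%) in both HEK293T pools. For SF3B4 the numbers were 289 of 2667 (10.8%) and 648 of 2589 (25.0%). RBFOX2 had 57 recurrent introns in K562 and 205 in HEK293T, and the other 7 RBPs had 7 to 18 and 10 to 63. PRPF8 introns with a peak in every K562 pool had a median length of 101 nt and began with GTAAG in 21.9% of cases, against 110 nt and 18.4% for all short introns.

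The spliceosomal proteins lay at opposite ends of the short introns. On a scale from 0 at the 5′ splice site to 1 at the 3′ splice site, the mean position of SF3B4 peaks was 0.606, 0.629 and 0.626 in the K562 pools, above all other RBPs in each. Peaks of PRPF8 were at 0.198, 0.220 and 0.175, the lowest of the 10 RBPs in each pool. SF3B4 was 0.309 above the mean of the other RBPs, with an exact permutation p = 0.001 and an adjusted p = 0.01, which was 0.08 among peaks enriched over the complement control, where 5 RBPs had enough of them. PRPF8 was lower by 0.16 with an exact permutation p = 0.028, which did not pass after the correction (adjusted p = 0.14). The mean positions in HEK293T were 0.583 ± 0.009 (SD, n = 2) for SF3B4 and 0.157 ± 0.017 (SD, n = 2) for PRPF8, with exact permutation p = 0.01 and 0.04.

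The 25% of the intron next to the 5′ splice site held 78.4% of PRPF8 peak centres in K562 and 86.3% in HEK293T, and the 25% next to the 3′ splice site held 37.4% and 31.6% of those of SF3B4. PRPF8 peaks reached over the 5′ splice site into the upstream exon in 67.6% of cases in K562 and 74.1% in HEK293T. SF3B4 peaks did so in 10.4% and 13.3%, and reached the downstream exon in 25.2% and 20.4%, where PRPF8 did in 4.40% and 2.64%. RBFOX2 peaks were spread more evenly, with a mean position of 0.404 in K562 and 0.416 in HEK293T. The remaining RBPs had means from 0.259 for DDX3 to 0.381 for PUM2 in K562, on the side of the 5′ splice site, and the median peak of DDX3, an RNA helicase of translation initiation, was centred 20.7 nt from it.

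**Figure D2:**
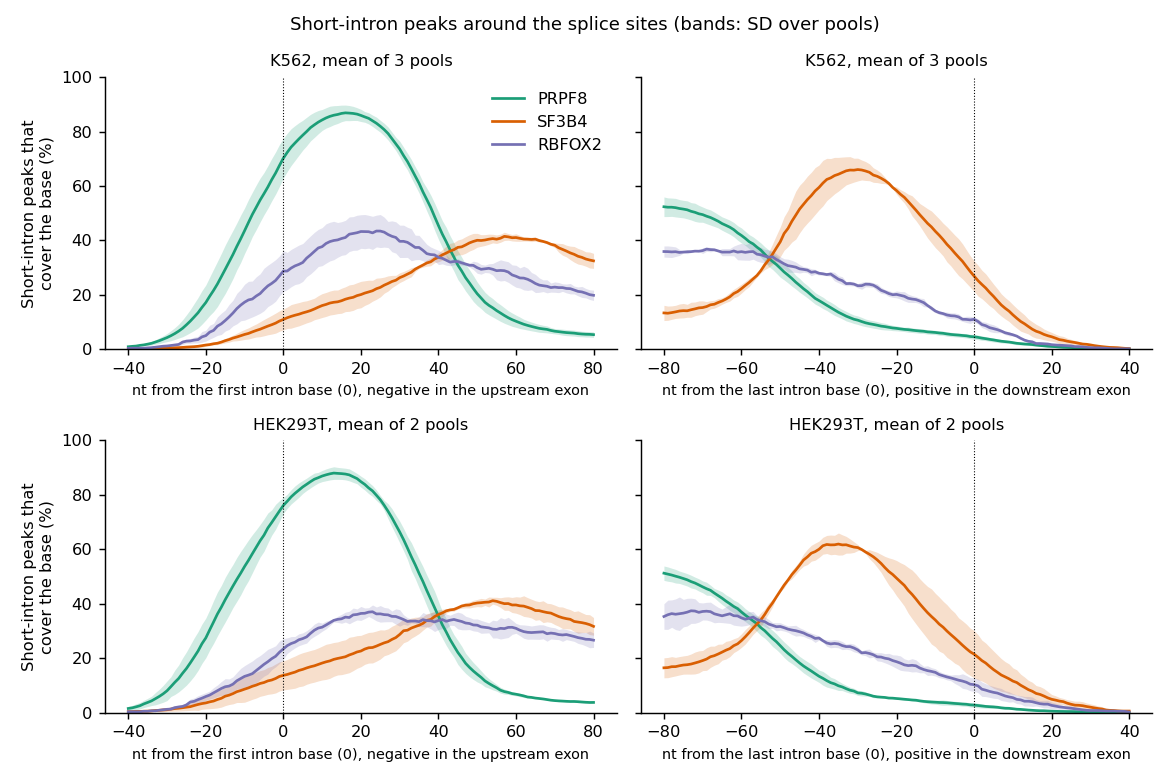
Share of short-intron peaks (y axis, percent of the peaks of a library, mean over pools) that cover each position around the 5′ splice site and the 3′ splice site (x axis, nt from the first and the last base of the intron), for PRPF8, SF3B4 and RBFOX2 in K562 and HEK293T, with bands of 1 SD over pools. PRPF8 is highest 17 nt into the intron in K562 and 14 nt in HEK293T, and SF3B4 31 and 36 nt before its end.

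At single-base resolution, the base covered by the most PRPF8 peaks was the base 17 nt into the intron in K562, under 86.9% ± 2.86 (SD, n = 3) of the peaks, and 14 nt in HEK293T, under 88.0% ± 2.3 (SD, n = 2). For SF3B4 it was 31 nt before the end of the intron in K562 (66.1% ± 4.2, SD, n = 3) and 36 nt in HEK293T (62.0% ± 4.1, SD, n = 2). Around the 5′ splice site, FAM120A peaks most often covered the base 16 nt into the intron in both cell lines. That base lay under 57.9% ± 14.4 (SD, n = 3) of them in K562 and 52.7% ± 1.4 (SD, n = 2) in HEK293T. For RBFOX2 the maximum there was 25 and 24 nt into the intron. A maximum near the 5′ splice site was thus not particular to PRPF8. CTNAC, the core of the human branch-point consensus with N for any base, was found in 43.5% of the short introns and, on the sense strand, in the bases under 29.7% ± 1.93 (SD, n = 3) of SF3B4 peaks in K562 and 27.4% ± 4.12 (SD, n = 2) in HEK293T. For the other RBPs this share was 8.70% to 12.3% in K562 and 9.18% to 17.1% in HEK293T. Of all short introns, 34.7% hold CTNAC in their last 60 nt, and the letters are no proof of a branch point.

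Intron length separated these distances further. From introns under 80 nt to the class just below 200 nt, the median distance of PRPF8 peak centres from the 5′ splice site went from 16.3 to 19.5 nt in K562, while that to the 3′ splice site went from 59.2 to 168 nt. In HEK293T the same medians were 12 and 14.5 nt from the 5′ splice site, and 64 and 172.5 nt from the 3′ splice site. SF3B4 behaved in the mirror image: its median distance to the 3′ splice site went from 26.7 to 42.0 nt in K562 and from 30.8 to 47.8 nt in HEK293T, and that from the 5′ splice site from 48.2 to 146 nt and from 45.3 to 137.5 nt. PRPF8 peaks were found in 25.7% ± 5.0 (SD, n = 3) of the 1715 introns under 80 nt in K562 and in 13.7% to 18.0% of the introns of the longer classes. In HEK293T the shares were 22.9% and 14.7% to 17.5%. For SF3B4 the introns under 80 nt also had the highest share, at 9.27% in K562 and 11.1% in HEK293T.

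**Figure D3:**
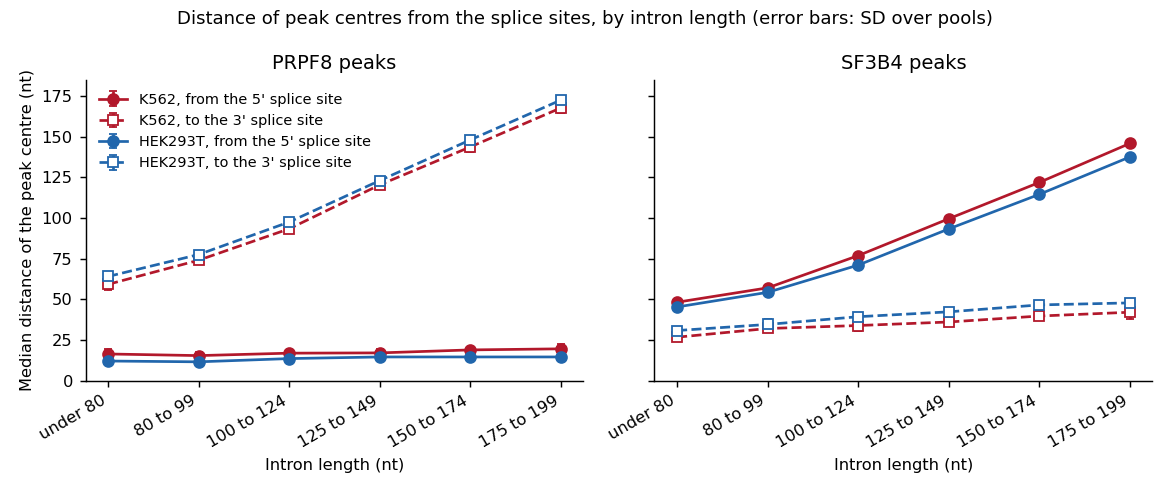
Median distance of peak centres from the 5′ and the 3′ splice site (y axis, nt) by length class of the short intron (x axis, nt), for PRPF8 and SF3B4, as means over the K562 and HEK293T pools with SD bars. PRPF8 keeps within 11.5 to 19.5 nt of the 5′ splice site, and SF3B4 moves from 26.7 to 47.8 nt of the 3′ splice site.

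Longer introns were compared at each end. Among PRPF8 peaks within the first 60 nt, the median centre was 13.3 ± 2.1 (SD, n = 3) nt from the 5′ splice site in introns of at least 200 nt in K562 and 17.3 ± 2.1 nt in introns from 120 nt up to the limit of 200 nt. SF3B4 peaks within the last 60 nt had medians of 29.7 ± 4.0 and 30.0 ± 2.6 nt from the 3′ splice site. In HEK293T the medians were 10.5 and 13.5 nt for PRPF8, and 34.0 and 33.5 nt for SF3B4. The window of 60 nt bounds these medians, and a smaller share of the peaks of the longer introns fell into it. For PRPF8 it held 83.5% ± 1.0 of the peaks of longer introns against 91.5% ± 1.5 in K562 (SD, n = 3), and 67.7% against 91.6% in HEK293T. For SF3B4 it held 57.7% ± 7.4 against 68.0% ± 4.9 (SD, n = 3), and 42.8% against 61.2%. The window covers more of a short intron than of a long one, and the differences were not tested.

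Both proteins had peaks in the same short intron in 558, 821 and 548 introns of the K562 pools and in 747 and 704 of the HEK293T pools. The mean centre of SF3B4 lay downstream of that of PRPF8 in 80.1%, 86.7% and 92.0% of these introns in K562, and in 87.1% and 83.1% in HEK293T. The median distance between them was 33, 44 and 46 nt, and 34 and 31 nt. In each pool, the shared introns were 51.0% of those with an SF3B4 peak and 18.1% of those with a PRPF8 peak in K562, on average, and 44.8% and 19.3% in HEK293T. Sharing with PRPF8 was not particular to SF3B4, which had the lowest such share of its introns. For the other 8 RBPs it was 60.2% (RBFOX2) to 92.9% (PUM2) in K562. In HEK293T it was 52.2% (RBFOX2) to 78.2% (ZC3H11A). The PUM2 share in K562 rests on 14, 14 and 15 introns. Of its peaks, 46.7%, 52.9% and 44.4% lay in introns with an annotated snoRNA. PRPF8 had a peak in 15.0%, 13.7% and 21.0% of all short introns in the K562 pools, and in 17.1% and 16.1% in HEK293T.

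The complement control (CC) compares the reads of an RBP at its peak with those of the other 9 RBPs of the same pool, and a peak counted as enriched where P was under 0.001 and the fold over 8. In K562, 3643 of 11299 short-intron peaks of PRPF8 with a CC value (32.2%) were enriched, where 20.2% of all its peaks were. SF3B4 had 1147 of 3878 (29.6%), beside 25.2% of all its peaks. Against its peaks in longer introns, the share of SF3B4 was lower in each pool of both cell lines, as given below. RBFOX2 had 71 of 1034 (6.87%), beside 11.7%, and LIN28B, which binds let-7 precursors and mRNA, had 30 of 228 (13.2%), beside 31.8%. Each of the remaining RBPs had 0 to 12 enriched peaks in short introns, a lower share than among all its peaks: FAM120A 2.26% of its members and 20% of its peaks, PUM2 4.26% and 26.5%, EIF3G 7.22% and 26.0%, DDX3 1.70% and 16.6%, and ZC3H11A 4.21% and 15.7%. IGF2BP2 had 0 of 227 enriched, which allows a share of up to 1.32%, beside 8.30% of all its peaks.

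In HEK293T the enriched share was 39.3% for PRPF8 (2919 of 7422), beside 16% of all its peaks, and 35.6% for SF3B4 (1142 of 3208), beside 21.4%. RBFOX2 had 8.85% of 1051 members, beside 11.6%. PUM2 had 6 of 31 (19.4%), beside 14.2%. The other RBPs were below their backgrounds: FAM120A 6.48% and 21.8%, LIN28B 5.59% and 21.8%, EIF3G 5.00% and 13.6%, DDX3 3.51% and 11.4%, ZC3H11A 1.75% and 7.93%, and IGF2BP2 0.815% and 4.17%. As the CC of each RBP contains the reads of PRPF8 and SF3B4, their peaks in short introns bear on the CC of all others, and these shares are not independent of each other.

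Tested library by library against all other peaks of the same library, the enriched share of PRPF8 short-intron peaks was higher by 14.0, 16.4 and 11.4 percentage points in the K562 pools. Against the other 9 RBPs this gave an exact permutation p = 0.001, the smallest possible, and an adjusted p = 0.01, which was 0.065 when enrichment over the external background was counted. SF3B4 differed by 6.09, 7.59 and -4.58 points, so that replicate 3 went the other way, with an exact permutation p = 0.038 and an adjusted p = 0.19. In K562 replicate 3 the CC values are the authors' own for all peaks, and in replicates 1 and 2 they leave out repeats. The bearing of this on SF3B4 was not tested. The other 8 RBPs had negative means, from -4.75 points for RBFOX2 to -21.9 points for PUM2. In HEK293T the differences were 23.2 and 25.2 points for PRPF8, 12.6 and 14.9 for SF3B4, and -4.30 and 11.5 for PUM2, which rests on 31 peaks. Against peaks in longer introns of the same library, the gap of PRPF8 was smaller and SF3B4 was lower. PRPF8 had 31.8%, 42.8% and 25.95% beside 26.5%, 39.1% and 20.1% in K562. In HEK293T it had 39.5% and 39.1% beside 27.9% and 25.2%. SF3B4 had 21.96%, 30.8% and 35.6% beside 26.4%, 35.7% and 55.5% in K562. In HEK293T it had 40.2% and 30.6% beside 44.7% and 34.1%.

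**Figure D4:**
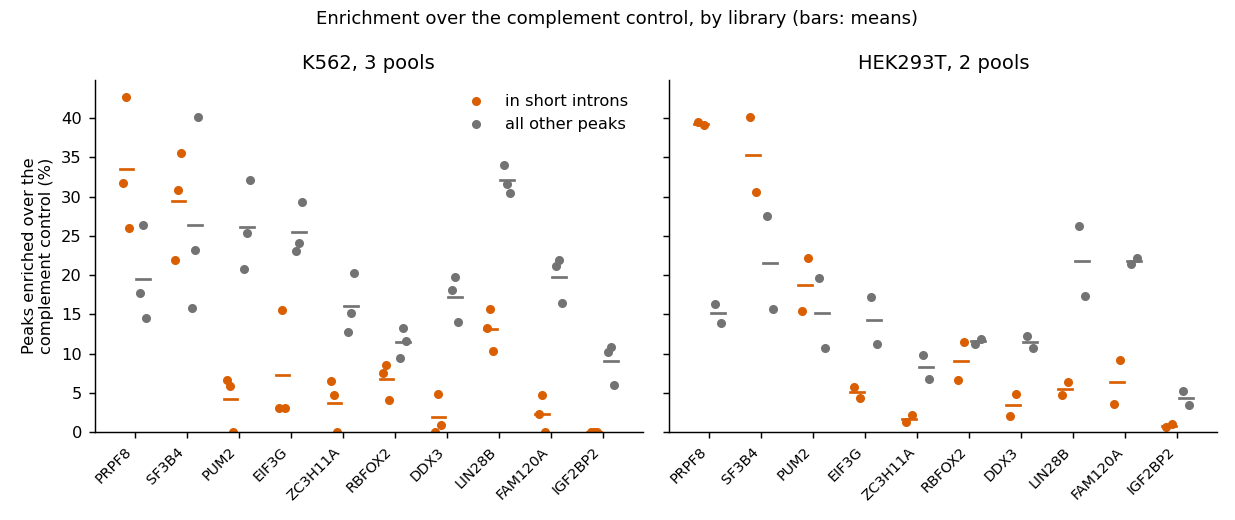
Percent of peaks enriched over the complement control (y axis) among short-intron peaks and among all other peaks, by RBP (x axis), with 1 point per pool and bars for the means, in K562 (3 pools) and HEK293T (2 pools). PRPF8 is higher in short introns by 11.4 to 16.4 percentage points in K562, and most other RBPs are lower.

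Over the external background, an RNA-seq library by the study's methods, more short-intron peaks passed the same limits. In K562, 77.3% of PRPF8 members were enriched (65.3% of all its peaks), 70.7% of SF3B4 (60.8%), 43.6% of RBFOX2 (36.8%), 84.8% of ZC3H11A (77.3%) and all 50 of PUM2 (99.5%). Members were below all peaks for DDX3 at 68.1% (72.8%), EIF3G at 53.4% (61.5%), LIN28B at 31.7% (42.0%), IGF2BP2 at 22.8% (28.5%) and FAM120A at 18.3% (42.6%). These shares pool libraries that differed, so the RBPs are not ranked by them. ZC3H11A had 100%, 53.7% and 100% in the K562 pools, beside 99.6%, 56.5% and 99.7% of its other peaks. SF3B4 had 66.3%, 58.3% and 98.9%, beside 58.9%, 46.4% and 99.1%. PRPF8 was above its other peaks in every pool, at 83.9%, 71.1% and 76.6% beside 73.1%, 58.4% and 62.9%. Short-intron peaks of HEK293T exceeded all peaks for 9 of 10 RBPs: PRPF8 50.9% (41.1%), SF3B4 79.5% (57.5%), RBFOX2 13.9% (9.20%), PUM2 87.1% (61.5%), EIF3G 60.2% (51.0%), ZC3H11A 52.6% (44%), LIN28B 47.3% (41.3%), DDX3 43.0% (36.9%) and IGF2BP2 40.2% (37.6%). FAM120A was the exception, at 39.7% (55.7%). The background reads of HEK293T were far deeper than those of its libraries except for RBFOX2, so these values are not compared between RBPs. In the singleplex libraries 16.7% of 1726 RBFOX2 members were enriched over this background (10.0% of all peaks) and 51.0% of 49 SLBP members (55.3%).

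Single sites showed the same arrangement. The enriched PRPF8 peak with the highest mean fold in K562 lay in intron 6 (84 nt) of FASN, which encodes fatty acid synthase, with 28, 38 and 61 reads and log2 folds of 7.22, 8.16 and 3.09 over the CC. It covers bases 12 to 46 of the intron in every pool, and no other RBP had a peak in this intron. PCED1A intron 3 held the one with the highest solved fold in HEK293T, with 99 and 102 reads and log2 folds of 9.18 and 9.21. Other RBPs also had peaks in this intron there, among them FAM120A with 19 and 23 reads and RBFOX2 with 13 and 37. The solved folds of FAM120A, RBFOX2, IGF2BP2, LIN28B and SF3B4 were positive in replicate 1 and negative in replicate 2. For FAM120A they were 5.83 and -2.81. Those of DDX3 were positive in both. The solved folds at this site are therefore uncertain, those of PRPF8 included. In all, 214 short-intron peaks of PRPF8 in K562 were enriched in every pool, and 508 in HEK293T. The same count over all peaks is not given here, so these numbers do not set short introns apart. They are not compared between the cell lines either, as K562 had 3 pools and HEK293T 2. SF3B4 had 45 and 142 such short-intron peaks. Its highest in K562 lay in intron 2 (198 nt) of PABPC1, the cytoplasmic poly(A)-binding protein, at log2 folds of 6.21, 8.07 and 4.83 and centred 37 nt from the 3′ splice site in replicate 1. All 3 values are above the log2 limit of 3.

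RBFOX2 peaks in short introns carried GCATG more often than those of other RBPs. Within 50 nt of the peak it was found for 21.6%, 27.7% and 25.8% of the RBFOX2 members in the K562 pools, and for 32.2% and 34.9% in HEK293T. In the singleplex libraries the shares were 45% and 44.5%. Means of the other RBPs were 3.81% to 12.4% in K562 and 3.85% to 12.3% in HEK293T, and 9.77% of all short introns hold the motif on the sense strand. In K562 the RBFOX2 mean of 25.0% was 16.6 percentage points above the mean of the other 9 RBPs (8.39%), with an exact permutation p = 0.001, the smallest possible. The search window reaches past the intron into its exons where a peak lies near a splice site. AMH intron 2, with GCATG at bases 14 to 18 and 45 to 49, had the highest enriched RBFOX2 peak of both cell lines, at log2 folds of 6.50, 3.52 and 3.61 in K562 and 7.18 and 8.19 in HEK293T. AMH encodes anti-Müllerian hormone. The gene with the most RBFOX2 short-intron peaks was MAN2C1, an alpha-mannosidase, with 5, 6 and 3 in K562, 6 and 6 in HEK293T and 9 and 8 in singleplex. EGFL7, the host gene of miR-126, followed in K562 with 3, 5 and 5.

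LIN28B had few short-intron peaks, at 99, 74 and 73 in K562 and 87 and 97 in HEK293T, and some of the strongest lay in the introns shown above. In PIEZO1 intron 37 (81 nt), which belongs to a mechanosensitive cation channel, its peaks had 48, 46 and 33 reads in K562 and log2 folds over the CC of 4.70, 9.64 and 4.29, all enriched. In HEK293T they had 3 and 5 reads and log2 folds of 3.24 and 3.13, and only that of replicate 2 was enriched. SEMA4C intron 11 (131 nt) had 8, 8 and 18 reads and log2 folds of 4.22, 7.12 and 5.00 in K562. The highest in HEK293T was ARF1 intron 2 (79 nt), at 14 and 17 reads and log2 folds of 3.74 and 8.89. There the K562 pools had 35, 51 and 50 reads, with folds of 4.63 and 5.88 in replicates 1 and 2 and no CC value for the peak in replicate 3. ARF1 is a small GTPase of the Golgi. No PRPF8 peak lay in this intron in any library, and 1 FAM120A peak with 3 reads was the only other one.

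The whole of this ARF1 intron, from its first to its last base, is the hairpin of MIR3620 in RefSeq (GRCh38.p14), the form of an intron whose debranched lariat can fold into a miRNA precursor (a mirtron). Its mature miRNAs, with the seed in capitals and in RNA letters, are shown because the bases under the LIN28B peaks overlap the second of them and touch the last base of the first.
hsa-miR-3620-5p: gUGGGCUGggcugggcugggcc
hsa-miR-3620-3p: uCACCCUGcaucccgcacccag
Of all short introns, 91 (0.401%) hold an annotated miRNA, 60 of these had a peak in some library and 19 in every K562 pool. RefSeq hairpins were equal to 23 short introns from end to end, of which 14 had a peak. The 91 introns with an annotated miRNA held 239 members (0.695%). For LIN28B 3 of 99, 2 of 74 and 4 of 73 members in K562 lay in introns with a miRNA. Over both cell lines, 4 LIN28B peaks in such introns were enriched. They were all in ARF1, in K562 replicates 1 and 2 and in both HEK293T pools.

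A group of 8 short introns held peaks of nearly every library, whatever the RBP. RPL13A intron 5, NOP56 intron 10 and RBMX intron 2 had peaks in all 54 libraries. TNPO2 intron 19, RPL7A intron 4, RPL4 intron 2 and PPAN-P2RY11 intron 3 had them in 53, and NCL intron 5 in 49. The next intron, in GSTK1, had 31, and 3359 of the 10072 introns with a peak (33.3%) had a peak in 1 library. Of the 8, all but that of TNPO2 hold an annotated C/D snoRNA (SNORD34, SNORD57, SNORD61, SNORD36B, SNORD18A, SNORD105 and SNORD82 in the order above), a class of small RNAs that guide methylation of ribosomal RNA and are cut from introns. SNORD34 spans bases 40 to 110 of the RPL13A intron. In these introns 90.9% to 100% of the peaks were centred within the snoRNA.

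The reads there differed between libraries more than the peaks did. In RPL13A intron 5 the peak with the most reads held 82 to 1499 reads (median 361.5) in the 30 K562 10plex libraries and 46 to 661 (median 188.5) in the 20 HEK293T libraries. In NOP56 intron 10 it held 22 to 477 (median 121.5) and 14 to 431 (median 118). Over the CC, the median log2 fold of the peaks in each of the 8 introns was between -0.12 and 0.73, and 0 to 4 peaks per intron were enriched. The TNPO2 intron, for which the annotation used gives no small RNA, had a median of 74.0 reads in its highest peak in K562 and peaks with median bounds at bases 43.5 and 116. TGATG followed by CTGA with 40 to 90 nt between them occurs in it, in 8 of 8 short introns with an annotated snoRNA and in 315 (1.39%) of all short introns. This match is a description of the letters. For RBPs with few peaks these introns weighed most: they held 48.0% of the PUM2 members in K562 and 49.1% in HEK293T, 33.1% and 13.4% of those of EIF3G, a subunit of the eIF3 initiation factor, but 0.373% and 0.361% of those of PRPF8. These shares count the introns with an annotated snoRNA, and without them the share of short-intron peaks of PUM2 was 0.722% in K562 and 0.329% in HEK293T.

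**Figure D5:**
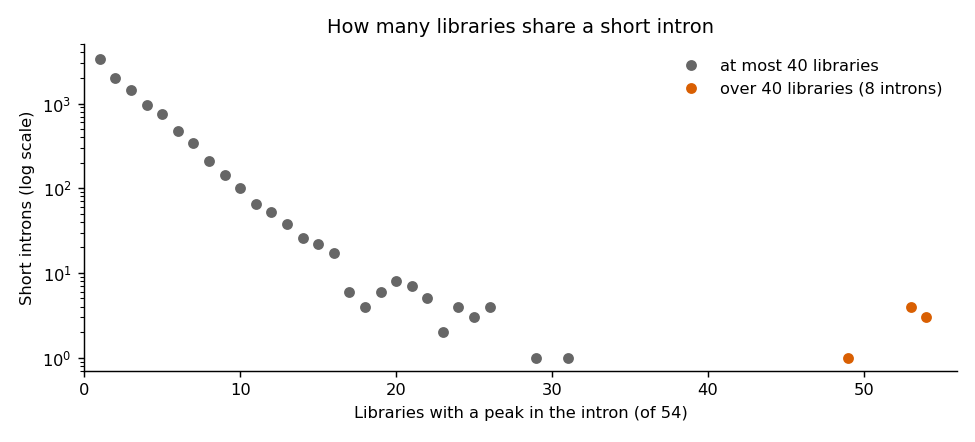
Number of short introns (y axis, log scale) by the number of libraries with a peak in them (x axis, of 54), with the introns of over 40 libraries in orange. 3359 introns had a peak in 1 library, and 8 introns stand apart at 49 to 54 libraries, 7 of them with an annotated snoRNA.

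Genes with many such peaks were few. A peak in every K562 pool, of any RBP, was found in 2015 short introns of 1392 genes. Of these genes, 988 (71.0%) had 1 such intron and 17 had 5 or more. FASN led with 13 of its 29 short introns, followed by NBEAL2, which acts in platelet granules, with 11 of 37, and PIEZO1 with 9 of 31. OPLAH (5-oxoprolinase) had 7 of 20, TNPO2 (a nuclear import receptor) 6 of 12, TXNIP (thioredoxin-interacting protein) 6 of 6, GIGYF1 6 of 21, ATXN2L 6 of 10, HNRNPA3 5 of 6 and LAMA5 (a laminin chain) 5 of 46. In HEK293T, OPLAH had no short-intron peak, where 14 of its short introns had one in some K562 10plex library. TTN, the muscle protein titin, has 197 short introns and no peak in them in any library, and STAB1 has 39 and none.

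These genes were led by the spliceosomal proteins. PRPF8 had 16, 16 and 19 peaks in short introns of FASN in K562 and 10 and 12 in HEK293T, 8, 10 and 16 in DYNC1H1 (the dynein heavy chain) and 8, 10 and 14 in NBEAL2. SF3B4 had 9, 10 and 6 in NBEAL2, 10, 4 and 7 in PIEZO1 and 6, 6 and 7 in LAMA5. FAM120A had 3, 3 and 3 in TMC6. For the other 10plex RBPs of K562 most leading genes were NOP56, RBMX, TNPO2 and RPL13A, each with an intron of the group above. SLBP had 5 and 0 in FASN and 2 and 1 in RPL13A.

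Gene families were described by the share of their short introns with a peak in every K562 pool, which was 8.88% of all short introns. HNRNP genes, which encode splicing regulators of the nucleus, had 21 of 43 (48.8%), with 5 of 6 in HNRNPA3, 4 of 4 in HNRNPA1 and 3 of 4 in HNRNPA2B1. Genes of ribosomal proteins had 28 of 73 (38.4%), among them 3 of 3 in RPL10 and 3 of 3 in RPLP0, and the CCT chaperonin had 5 of 13 (38.5%). MCM2 to MCM7, the replicative helicase, had 4 of 12 (33.3%), CLK kinases 2 of 9 (22.2%), proteasome subunits 17 of 86 (19.8%), aminoacyl-tRNA synthetases 14 of 73 (19.2%) and subunits of RNA polymerase II 6 of 32 (18.8%). The genes of the 10 RBPs themselves had 7 of 38 (18.4%). Initiation factors of translation had 15 of 104 (14.4%), SR splicing factors 1 of 8 (12.5%) and the group of filamins, TLN1 and MYH9 had 9 of 92 (9.78%). None of these lists was tested.

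Between the cell lines, the mean share of short-intron peaks over the 10 RBPs was 1.95% ± 0.345 (SD, n = 3) in K562 and 1.27% ± 0.267 (SD, n = 2) in HEK293T. The difference of 0.679 percentage points had an exact permutation p = 0.2 over the pools, where the smallest possible is 0.1. The mean was higher in K562 for 10 of 10 RBPs, and the pools did not overlap for DDX3, EIF3G, PRPF8, PUM2 and RBFOX2. RBFOX2 had the highest ratio, at 2.95 (0.945% ± 0.203 in K562 against 0.321% ± 0.0890 in HEK293T), but no RBP passed the test, with exact permutation p of at least 0.1. HEK293T libraries held more peaks, and the part of depth in this was not tested beyond the share among the 900 peaks with the most reads, which was higher in K562 for 8 of 10 RBPs. Of the short introns with a 10plex peak, 7649 were found in K562, 6964 in HEK293T and 4727 in both, or 61.8% of the first and 67.9% of the second.

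RBFOX2 in HEK293T was measured in both formats, which asks whether pooling changes what a library holds. The share of short-intron peaks was 0.321% and 0.331% in singleplex and 0.384% and 0.258% in the 10plex pools. The singleplex mean was higher by 0.00526 percentage points, with an exact permutation p = 1 where the smallest possible is 0.333, so that no difference of any size could pass the test. Members of the singleplex libraries lay farther downstream, at mean positions of 0.542 and 0.564 against 0.418 and 0.414, and reached the upstream exon in 6.10% ± 0.21 (SD, n = 2) of cases against 22.2% ± 4.1 (SD, n = 2). The libraries of the formats did not overlap in these measures, which are some of many described per library. They were not planned for this comparison and were not tested. With 2 libraries each, the smallest exact permutation p of such a split would be 0.333. The singleplex libraries held 339302 and 192738 peaks. SLBP in K562 had 35 and 14 members, 0.787% and 0.803% of its peaks, of which 30.7% on average lay in introns with an annotated snoRNA.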

How the data were processed

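The authors processed ABC reads with UMI-tools, trimmed adapters with cutadapt, separated the barcodes, set reads from repetitive elements aside, aligned the rest with STAR, collapsed duplicate reads with the UMIs and ran CLIPper on each library. The submitters' processing notes give STAR 2.7.6, cutadapt 2.8 and GRCh38. The authors deposited merged peaks with a capped −log10 P and a log2 fold of the reads in the peak over an external background. For K562 replicate 3 they also deposited a −log10 P and a log2 fold over the complement control (CC), and for the other 10plex pools lists with a chi-squared statistic, from which peaks in repeats are left out. Further deposited lists, with CLIPper p-values, were not used. The 2 HEK293T pools are both titled as replicate 1 and were numbered 1 and 2 after their earlier names in the labels, and the RBP of each 10plex library was taken from its deposited list and checked against the antibodies in the labels.

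The reads of a peak were taken from the authors' peak names or recovered from the log2 fold. Those of the CC were solved from the deposited chi-squared value, given the reads of the peak and the part of the pool's reads that the library holds, and P followed the study's rule (Yates' chi-squared test, or Fisher's test at low counts). Folds over the CC outside K562 replicate 3 are therefore solved values. In FASN intron 6 these log2 folds were 7.22 and 8.16, against 3.09 by the authors in replicate 3. In PIEZO1 intron 37 they were 4.70 and 9.64 against 4.29, and in SEMA4C intron 11 4.22 and 7.12 against 5.00. Introns came from canonical coding transcripts of GENCODE 44, where the authors used GENCODE 35. The members and lists were chosen with earlier results of these data known. Named genes were the 10 with the most short introns holding a peak in every K562 pool and the 3 with the most short-intron peaks per RBP, and named introns were those with the strongest enriched peak of each RBP in K562, with a small RNA and with peaks of the most libraries. PCED1A, SEMA4C, GSTK1, TTN, STAB1 and some members of gene families were named after their values were seen. RBPs were compared by exact two-sided permutations of their labels within pools (1000 choices for K562, 100 for HEK293T), with the Benjamini-Hochberg adjustment over 10 RBPs and a threshold of 0.05, and cell lines by the 10 splits of the pools. The tests were checked on simulated data. Python 3.11.15, numpy 2.4.6, pandas 2.3.3, scipy 1.17.1, matplotlib 3.10.9 and samtools 1.23.1 were used.

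Alternatives were other length limits and overlaps, enriched peaks only, the 900 peaks with the most reads, reads in place of peaks, peaks in any intron as the whole, no replicate block and each replicate left out. Leaving out introns with a snoRNA or under 50 nt, and the deposited in place of the recomputed P, were added after the data were seen. Shallow libraries, PUM2 above all, yield few peaks and the least precise shares. Reads in touching peaks count in each, and intervals cover counting error only. Some single genes and sites are not reported here.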

Additional observations from a re-analysis of the deposited data

How the results depend on the processing

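The count of RBPs whose share of short-intron peaks in K562 passed the test was 2 (PRPF8 and SF3B4). It was 1 with peaks enriched over the CC, 1 with the 900 peaks with the most reads and 1 with the share of summed reads, PRPF8 each time. It was 0 to 0 when each replicate was left out in turn, since with 2 pools the smallest adjusted p is 0.1, and the differences of PRPF8 were then 4.90 to 5.72 percentage points. The count for position in K562 was 1 (SF3B4), 2 with peaks enriched over the external background (PRPF8 added), 0 with those enriched over the CC, where 5 RBPs had enough peaks, and 0 to 0 without a replicate. The count for enrichment over the CC was 1, and 0 to 0 without a replicate. Introns shorter than 100 nt held 14201 peaks. The count in HEK293T was 0 under every alternative, which says nothing about stability. With 2 pools, no RBP could pass the threshold after the correction.

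The difference between the cell lines was 0.491 to 0.878 percentage points without 1 pool, and with the replicate block, on the numbers 1 and 2 that both cell lines share, it was 0.569 (exact permutation p = 0.5, the smallest possible). The numbers of different cell lines pair no samples. For RBFOX2 in singleplex and 10plex the difference reversed to -0.068 as a share of intron peaks and to -0.0577 without 10plex replicate 2, ranged from -0.0577 to 0.0682 without 1 library, and was 0.00526 with the replicate block. Values of single RBPs that turned were the position of PUM2 without snoRNA introns in K562 (-0.0161) and among enriched peaks in HEK293T (-0.137), and the enriched share of RBFOX2 against longer introns (-3.78), none of them past the test. Over all alternatives, 73 values that answer a comparison kept their call or size, 15 moved and 2 turned. The 73 include the HEK293T counts of 0, which the design fixed. Of the values of single RBPs, 189 kept their call, 17 fell below the threshold, 1 passed it anew and 3 turned. Without the replicate block, p-values were computed over all libraries and no count changed.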
